A study of Homo sapiens with 6 samples.

Results

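Mitophagy delivers damaged or surplus mitochondria to the lysosome. Receptors in the outer mitochondrial membrane, such as BNIP3, BNIP3L (NIX), FUNDC1, BCL2L13 and FKBP8, bind LC3 and GABARAP proteins on the growing autophagosome directly. In the other arm the kinase PINK1 builds up on depolarized mitochondria and phosphorylates ubiquitin, and the adaptors OPTN, SQSTM1 (p62), CALCOCO2 (NDP52) and TAX1BP1 then link the ubiquitin chains to the autophagosome. Transcription of BNIP3 is known to be raised by hypoxia-inducible factor (HIF).

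These 10 genes (5 receptors, PINK1 and 4 adaptors) were read by their symbols from a table of 19845 genes. All 10 were present, and all 10 passed the filter on low counts that left 11861 genes for testing. RNA-seq had been performed on 6 cultures of Molm13, a human acute myeloid leukemia line with an MLL rearrangement. Every culture stably expressed Cas9 and was selected in puromycin after lentiviral transduction. In 3 of them the guide was an sgCtrl, directed at non-essential sequence, and in the other 3 it was an sgCOX4I1, directed at the gene of Complex IV subunit COX4I1. The 3 libraries of a group stand for 3 different guide sequences, per the study's supplement, so p-values measure the spread between cultures that also differ in their guide. The time between transduction and harvest was not given in the sources used here. The contrast asks how loss of a Complex IV subunit changes the mRNA of the machinery that removes mitochondria.

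Total counts were between 17241014 and 30861943 per library. COX4I1 mRNA in sgCOX4I1 #1, #2 and #3 was 26.7%, 76.7% and 27.0% of the sgCtrl mean (492 ± 26.4 CPM, SD, n = 3). In its COX4I1 mRNA, sgCOX4I1 #2 thus stood apart, and values without it are given where it moved a result. COX4I1 protein was not measured in these libraries, so whether sgCOX4I1 #2 lost less protein was not tested. By Western blot of Molm13-Cas9 cells, the paper reports reduced COX4I1 protein with its sgCOX4I1 guides. COX4I1 mRNA was not called, at a log2 fold change of -1.21 (adjusted p = 0.0512 by edgeR). Without sgCOX4I1 #2 it was called, at -1.89 (adjusted p = 3.4e-06 by edgeR). CPM values throughout are scaled to the TMM-normalized library size. The 8 myeloid markers examined (PTPRC, CD33, FLT3, SPI1, MPO, HOXA9, MEIS1, CSF1R) were all detected, with a summed level of 1235 to 1273 CPM in the controls and 1066 to 1091 CPM in sgCOX4I1. The 9 markers of other cell types summed to at most 4.09 CPM in any library, and 4 of them, EPCAM and ALB included, had no counts. MPO was the 1 marker called, with a log2 fold change of -1.06, and the part of the myeloid markers in the results below was not tested.

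BNIP3 was the only one of the 10 genes with an adjusted p under 0.05, and it was lower in sgCOX4I1 cells. BNIP3 had 47.6, 54.0 and 50.3 CPM in sgCtrl #1, #2 and #3 against 37.3, 34.9 and 33.4 CPM in sgCOX4I1 #1, #2 and #3. The groups did not overlap, and each sgCOX4I1 library lay at 73.6%, 69.0% and 65.9% of the sgCtrl mean. In sgCOX4I1 #2, where COX4I1 mRNA was least reduced, BNIP3 lay between its levels in #1 and #3. On the log2 scale BNIP3 fell by 0.53 (SE 0.086), with an adjusted p of 0.00809 (edgeR's quasi-likelihood test, Benjamini-Hochberg over all genes tested), a fold of 0.695 with a 95% interval from 0.611 to 0.790. In bulk RNA, fewer cells that express a gene and less of its mRNA per cell cannot be told apart.

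Of the 11861 genes tested, 2.08% had an adjusted p under 0.05, with 1.06% higher and 1.02% lower in sgCOX4I1, beside 1 of the 10 genes here, lower. None of the 10 was called with a change of at least 2-fold by edgeR, where 0.202% of all genes were, and 2 of the 10 had an unadjusted p under 0.05 (BNIP3 and SQSTM1), against 17.3% of all genes. No overlap between groups was seen in 3 of the 10, 1 higher and 2 lower, against 21.6% of all genes, 11.2% higher and 10.4% lower. The median log2 fold change was -0.076 over the 10 genes and -0.0023 over all genes. A share of 3 in 10 non-overlapping genes is near that background.

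The call on BNIP3 was lost in 2 of the 13 alternatives run. Without sgCtrl #2 the adjusted p was 0.1003 at a log2 fold change of -0.48, and without sgCOX4I1 #2 it was 0.0565 at -0.52. Calls over all genes also fell in these 2 fits, to 24 and 51, from 247 with every library. Across all 13 the log2 fold change of BNIP3 stayed between -0.57 and -0.48. Its adjusted p lay between 5.7e-05 and 0.1003, by edgeR, DESeq2 or limma-voom.

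**Figure D1:**
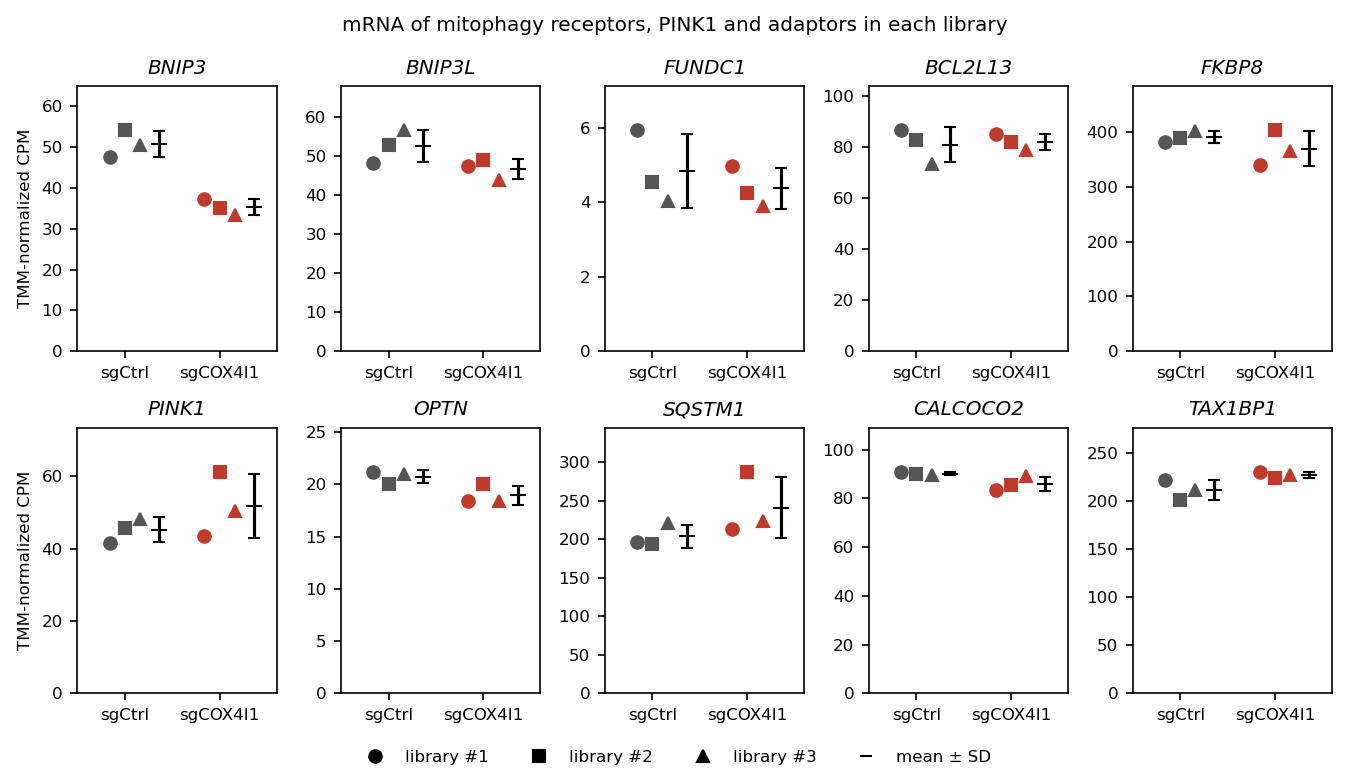
TMM-normalized CPM (vertical axis, from 0) of the 10 genes in each of the 6 libraries, sgCtrl in gray and sgCOX4I1 in red, with the symbol giving the library number and a bar at each group's mean ± SD. BNIP3 is at 33.4 to 37.3 CPM in sgCOX4I1 and 47.6 to 54.0 CPM in sgCtrl, while PINK1 and SQSTM1 are highest in sgCOX4I1 #2.

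BNIP3 lies on the minus strand of chromosome 10, from 131967684 to 131981967 in GRCh38. In GENCODE 44, 44 pseudogenes are named after it, so reads could have been split between copies or left uncounted. Its promoter is shown because ACGTG is a form of the core that HIF binds, and the only form of it searched for here. It is set beside that of CALCOCO2, the only other one of the 7 genes with a RefSeq promoter entry to hold these letters. Both are the 250 bases before the start site, 5′ to 3′ on the gene's strand, in GRCh38.p14 from RefSeq, at chr10:131981924-131982173 (minus strand) and chr17:48830785-48831034 (plus strand). Capitals mark ACGTG on either strand.
BNIP3: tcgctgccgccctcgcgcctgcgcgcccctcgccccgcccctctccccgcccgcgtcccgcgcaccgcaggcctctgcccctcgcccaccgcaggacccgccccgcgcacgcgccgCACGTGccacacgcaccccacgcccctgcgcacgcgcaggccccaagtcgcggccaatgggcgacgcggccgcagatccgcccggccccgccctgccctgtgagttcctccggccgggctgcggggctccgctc
CALCOCO2: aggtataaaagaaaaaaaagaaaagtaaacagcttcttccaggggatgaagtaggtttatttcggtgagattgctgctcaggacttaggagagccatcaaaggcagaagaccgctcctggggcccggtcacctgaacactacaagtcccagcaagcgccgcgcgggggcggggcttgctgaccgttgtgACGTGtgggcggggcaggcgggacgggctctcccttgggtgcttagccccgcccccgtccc

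In the BNIP3 window the match begins 134 bases before the start and is the palindrome CACGTG, so that ACGTG reads on both strands and the 2 matches overlap. In CALCOCO2 it begins 61 bases before the start, on 1 strand. ACGTG was in 18.5% of all 35116 promoter windows of that length and CACGTG in 6.35%, and 29.3% of the 9251 tested genes with an entry held ACGTG in at least 1 window. Of the 9 HIF target genes with an entry, 5 held it (ALDOC, ANKRD37, LDHA, P4HA1 and PDK1). BNIP3 fell and CALCOCO2 was not called, and a match in letters is not a measured site. BNIP3L, PINK1 and FKBP8 had no entry.

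BNIP3L, the paralog of BNIP3 known for clearing mitochondria from maturing red cells, was not called. It had 48.2, 52.6 and 56.5 CPM in sgCtrl #1, #2 and #3 against 47.3, 48.8 and 43.8 CPM in sgCOX4I1 #1, #2 and #3, and the groups overlapped. Its log2 fold change came to -0.17 (SE 0.086, adjusted p = 0.329 by edgeR), with a 95% interval of the fold from 0.781 to 1.01. Within a library the ratio of BNIP3 to BNIP3L was 0.988, 1.03 and 0.890 in sgCtrl and 0.788, 0.715 and 0.762 in sgCOX4I1. The log2 ratio differed by -0.36 between groups with no overlap, at a two-sided exact permutation p of 0.1, the smallest that 3 libraries against 3 allow. The paralogs were about equal in the control cells, and BNIP3 was the lower of the pair in each sgCOX4I1 library.

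The other 3 receptors showed no call. FUNDC1, a receptor regulated by phosphorylation, was the least abundant, with 5.94, 4.56 and 4.03 CPM in the controls and 4.99, 4.24 and 3.90 CPM in sgCOX4I1. Its counts ran from 73 to 122 per library, and the 95% interval of the fold, 0.668 to 1.22, was the widest of the 10. BCL2L13, regarded as the mammalian counterpart of the yeast receptor Atg32, had 86.8, 82.9 and 73.5 CPM in the controls and 85.3, 82.2 and 78.9 CPM in sgCOX4I1. These overlapped fully, and the 95% interval of the fold was 0.898 to 1.14. FKBP8, which anchors BCL2 at mitochondria besides binding LC3, was the most abundant, with 382, 388 and 402 CPM in the controls and 339, 403 and 366 CPM in sgCOX4I1. Its groups overlapped, with sgCOX4I1 #2 the highest of the 6 libraries, and its log2 fold change was -0.082 (SE 0.080, adjusted p = 0.651 by edgeR).

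**Figure D2:**
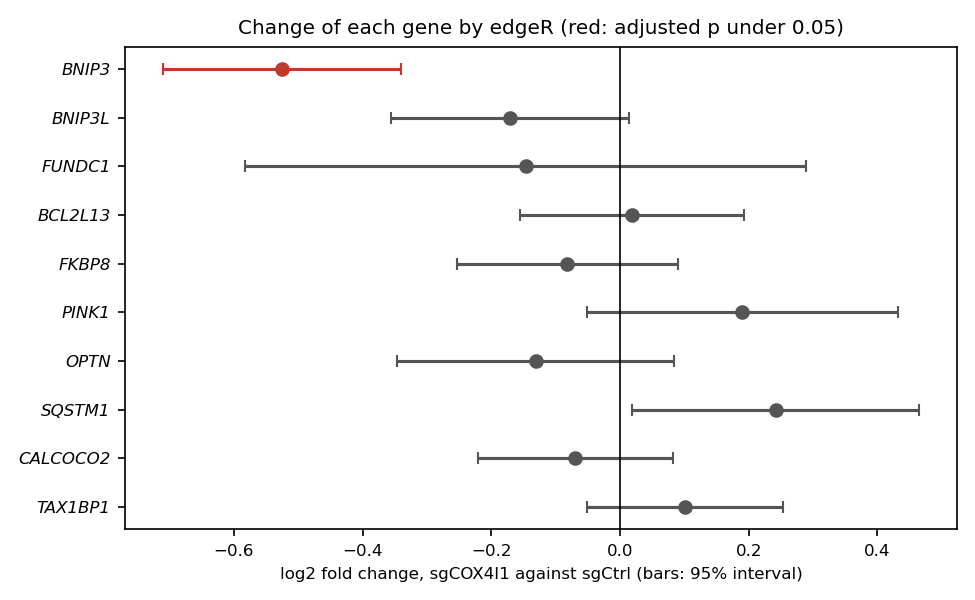
Log2 fold change of the 10 genes in sgCOX4I1 against sgCtrl (horizontal axis) by edgeR, with bars for the 95% interval from 3 libraries per group and red for an adjusted p under 0.05. BNIP3, at -0.53, is the only gene in red, and the interval of SQSTM1 lies just above 0.

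PINK1 was not called. It had 41.5, 45.8 and 48.3 CPM in sgCtrl #1, #2 and #3 against 43.5, 61.2 and 50.5 CPM in sgCOX4I1 #1, #2 and #3. sgCOX4I1 #2 was the highest library, at 135% of the sgCtrl mean, while #1 lay within the sgCtrl range. The log2 fold change of 0.19 (SE 0.11, adjusted p = 0.413 by edgeR) became 0.058 (adjusted p = 0.858) without sgCOX4I1 #2. Exons of the antisense gene PINK1-AS cover 39.5% of the exonic bases of PINK1. The library kit was directional, but whether counting used the strand is not stated, so reads of the overlapping genes could have been counted together.

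Among the adaptors, SQSTM1 had the largest difference and did not pass the test over all genes. SQSTM1 binds ubiquitin chains and LC3, and also the NRF2 inhibitor KEAP1. It had 196, 195 and 221 CPM in sgCtrl #1, #2 and #3 against 213, 287 and 224 CPM in sgCOX4I1 #1, #2 and #3. As for PINK1, sgCOX4I1 #2 was highest, at 141% of the sgCtrl mean against 104% and 110% for #1 and #3, and the groups overlapped between sgCtrl #3 and sgCOX4I1 #1. Its log2 fold change came to 0.24 (SE 0.10, unadjusted p = 0.0356, adjusted p = 0.245 by edgeR) and 0.10 (adjusted p = 0.644) without sgCOX4I1 #2. Exons on the opposite strand, of MGAT4B and MRNIP, cover 22.4% of its exonic bases.

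The ratio of SQSTM1 to CALCOCO2 within a library was 2.17, 2.16 and 2.46 in sgCtrl, and 2.56, 3.37 and 2.52 in sgCOX4I1. The log2 ratio differed by 0.30 (exact permutation p of 0.1, two-sided and again the smallest possible) and by 0.17 without sgCOX4I1 #2, where p was 0.2. Without sgCtrl #1, #2 or #3 it differed by 0.27, 0.27 and 0.37, with p of 0.3, 0.3 and 0.2. Without sgCOX4I1 #1 or #3 p stayed at 0.1.

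CALCOCO2, an adaptor that recruits the autophagy-initiating kinase complex, was the steadiest of the 10 genes in the control cells. It had 90.7, 89.98 and 89.6 CPM in the controls and 83.3, 85.3 and 89.0 CPM in sgCOX4I1. The groups just failed to overlap, with a log2 fold change of -0.069 (SE 0.070, adjusted p = 0.665 by edgeR). TAX1BP1, which acts in ubiquitin-dependent autophagy, had 222, 201 and 211 CPM in the controls and 230, 224 and 227 CPM in sgCOX4I1. It was the 1 gene of the 10 higher in each sgCOX4I1 library than in any control, by a log2 fold change of 0.10 (SE 0.071, adjusted p = 0.499 by edgeR). OPTN, an adaptor activated by TBK1, had 21.1, 20.0 and 21.0 CPM in the controls and 18.4, 20.0 and 18.4 CPM in sgCOX4I1, with overlap through #2 of each group. Its 95% interval of the fold was 0.787 to 1.06. For these 3 adaptors the 95% intervals of the fold included 1 and reached from 0.787 to 1.19.

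**Figure D3:**
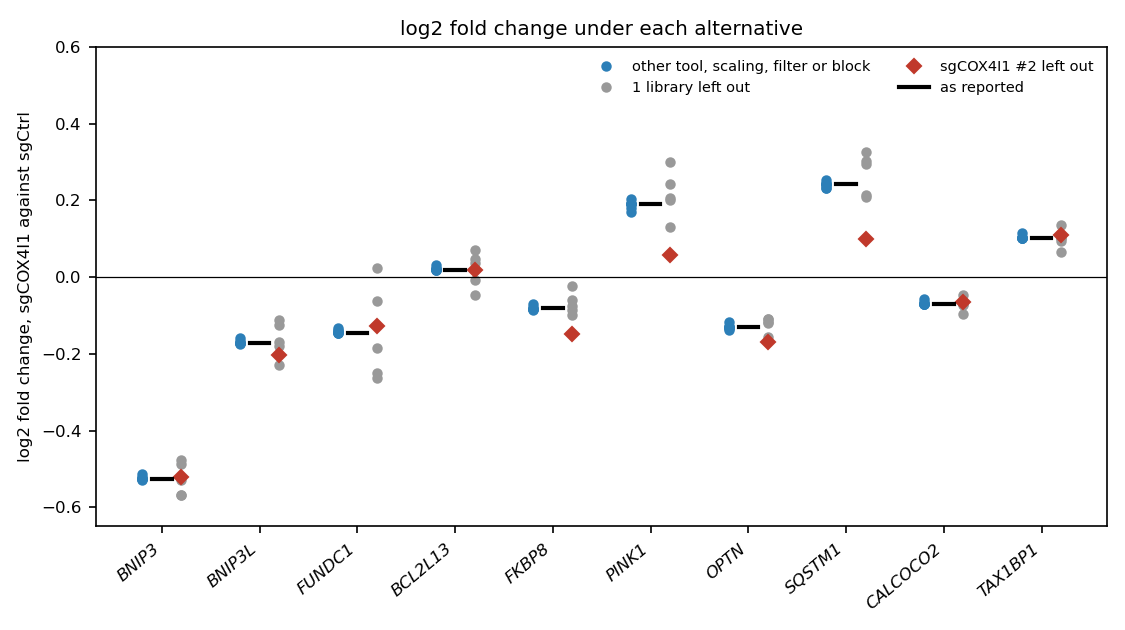
Log2 fold change of the 10 genes (vertical axis) as reported (black bar), with another tool, scaling, filter or the replicate block (blue), and with 1 library left out (gray, or a red diamond for sgCOX4I1 #2). BNIP3 stays between -0.57 and -0.48, while PINK1 and SQSTM1 drop to 0.058 and 0.10 without sgCOX4I1 #2.

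Levels of different genes were compared as RPKM, CPM per kilobase of exonic sequence in GENCODE 44. FKBP8 ranked first in sgCtrl at 139 ± 3.68 RPKM (SD, n = 3), followed by SQSTM1 at 27.1 ± 1.93 and TAX1BP1 at 23.1 ± 1.15, and these 3 did not overlap. BNIP3L (12.6 ± 1.00), BNIP3 (12.5 ± 0.800), CALCOCO2 (10.9 ± 0.0652), BCL2L13 (10.6 ± 0.894) and PINK1 (9.36 ± 0.709) came next. Neighbours overlapped in that stretch except BNIP3 and CALCOCO2. OPTN (4.03 ± 0.122) and FUNDC1 (3.85 ± 0.785) were lowest and overlapped with each other.

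In sgCOX4I1 cells BNIP3 moved from rank 5 to rank 8, at 8.69 ± 0.485 RPKM, below PINK1, which stood at 10.7 ± 1.84. The first 4 and the last 2 places were as in sgCtrl. With the length of the longest transcript in place of all exons, BNIP3L moved from rank 4 to rank 7 in sgCtrl and BNIP3 stayed at rank 5, so the order of the middle genes rests on the length used.

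**Figure D4:**
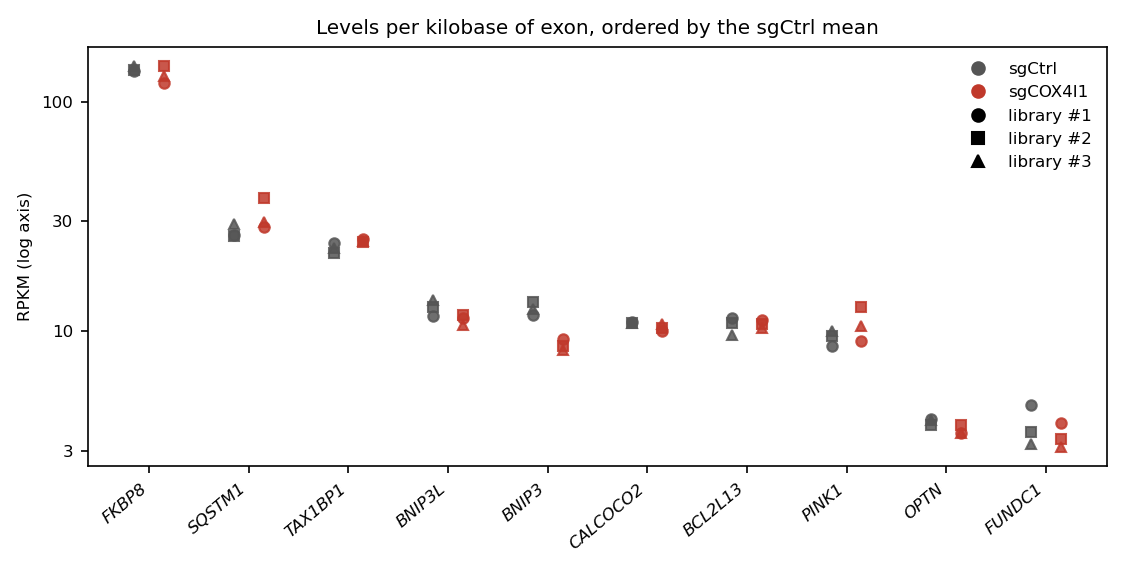
RPKM (vertical log axis) of the 10 genes in each library, ordered by the sgCtrl mean, with sgCtrl in gray and sgCOX4I1 in red. FKBP8 is at 139 RPKM in sgCtrl and FUNDC1 at 3.85, and BNIP3 is the gene whose red points all lie apart from and below the gray ones by the widest margin.

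The genes whose log2 CPM most resembled BNIP3 over the 6 libraries, among 8987 with a mean of at least 10 CPM, were MTSS1L, BIN3, IER2, SP140L and NARF. Their Pearson r, given as a description over 6 libraries in 2 groups, lay between 0.988 and 0.996. MTSS1L went from 234 to 174 CPM and NARF from 56.3 to 41.4 CPM between the group means, and both were called lower, as was IER2, while BIN3 and SP140L were not called. Among the genes nearest to SQSTM1 were RBM38, ANXA2 and ADORA2B, with r between 0.987 and 0.992. Each of these was highest in sgCOX4I1 #2, as with ANXA2 at 210 CPM there against 141 to 163 CPM in the other 5 libraries, and none of these 3 was called by edgeR.

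Other genes of the PINK1 arm were measured from a list of 20, of which 19 were tested. PARL was the 1 called, lower in sgCOX4I1, and none was called higher. PARL is the inner membrane rhomboid protease that cleaves imported PINK1 in healthy mitochondria. It had 6.21, 5.65 and 6.83 CPM in the controls and 3.96, 3.43 and 3.04 CPM in sgCOX4I1, with no overlap. PARL fell by 0.85 (log2, SE 0.19, adjusted p = 0.0347 by edgeR), from counts of 59 to 139 per library. The call was lost without sgCtrl #2, sgCtrl #3, sgCOX4I1 #2 or sgCOX4I1 #3, with adjusted p up to 0.145 by edgeR, while the log2 fold change stayed between -0.95 and -0.75 in all 13 alternatives. On the same strand, 47.2% of the exonic bases of PARL also belong to another gene model, and reads there could have gone uncounted. The median log2 fold change of the list was 0.049.

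The other receptors and adaptors (8 genes tested), the turnover genes of BNIP3 and BNIP3L (5 genes), the ATG8 family (5 of 7), the genes of autophagosome formation (23 of 24) and the transcriptional regulators (10 genes) held no called gene by edgeR, DESeq2 or limma-voom. At an unadjusted p under 0.05 from edgeR they held 1, 0, 1, 6 and 2 genes, beside 17.3% of all genes tested. NIPSNAP1, which helps to recruit adaptors to depolarized mitochondria, was at a log2 fold change of 1.13 (SE 0.35, adjusted p = 0.114) and a mean of 1.01 CPM over all libraries, and the adaptor NBR1 and NIPSNAP2 were at -0.098 and 0.092. GABARAPL1, an ATG8 protein to which BNIP3L binds, had a log2 fold change of 0.44 (adjusted p = 0.107), with no overlap, while GABARAPL2 and GABARAP were at -0.15 and -0.24.

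In autophagosome formation ATG101 of the ULK1 complex was at -0.29 (adjusted p = 0.0964), ATG16L1 of the LC3-conjugating complex at -0.24 (adjusted p = 0.154) and the phosphoinositide-binding WIPI1 at 0.45 (adjusted p = 0.205), all by edgeR. Of the 23 genes tested in that list, 14 were below 0 and 9 above. Without overlap 5 were lower and 0 higher, against 10.4% and 11.2% of all genes. FBXL4 and PPTC7, which keep BNIP3 and BNIP3L protein low, were at 0.16 each (adjusted p = 0.368 and 0.342), both without overlap, and the ligase subunit RBX1 was at -0.15. Of the regulators, EPAS1 (HIF-2alpha) was at 0.25 (adjusted p = 0.192), NFE2L2 (NRF2) at 0.23 (adjusted p = 0.215) and MITF at 0.22 (adjusted p = 0.389), while HIF1A mRNA, named after its value was seen, was at 0.11 (adjusted p = 0.619).

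HIF target genes other than BNIP3 were read from a list of 12, of which 11 were tested. The glucose transporter SLC2A3, the peptide hormone gene ADM and ANKRD37 were called, all lower, and no gene was called higher. ANKRD37 had counts of 60 to 132 per library. Exons of UFSP2 on the opposite strand cover 40.3% of its exonic bases, so the limit on strand given for PINK1 holds here too. The median of the list was -0.33 on the log2 scale. SLC2A3, ADM and ANKRD37 fell by 0.92, 0.93 and 0.84 (log2), and whether this differs from the 0.53 of BNIP3 was not tested. SLC2A3 was called in all 13 alternatives. ADM was not called without sgCtrl #2 or sgCOX4I1 #3 (adjusted p = 0.199 and 0.0877 by edgeR), nor ANKRD37 without sgCtrl #2, sgCOX4I1 #2 or sgCOX4I1 #3 (adjusted p = 0.223, 0.160 and 0.153). VEGFA, PDK1, LDHA and P4HA1, also targets of HIF and picked out after their values were seen, had log2 fold changes between -0.032 and 0.016. The rest of the tested list, also named after its values were seen, was lower but not called. ALDOC was at -0.49, NDRG1 at -0.42, SLC2A1 at -0.33 and KDM3A at -0.27. At an unadjusted p under 0.05 from edgeR the list held 7 of its 11 tested genes, beside 17.3% of all genes tested. These lists were chosen with earlier results on the same libraries known, so their direction is no independent evidence.

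**Figure D5:**
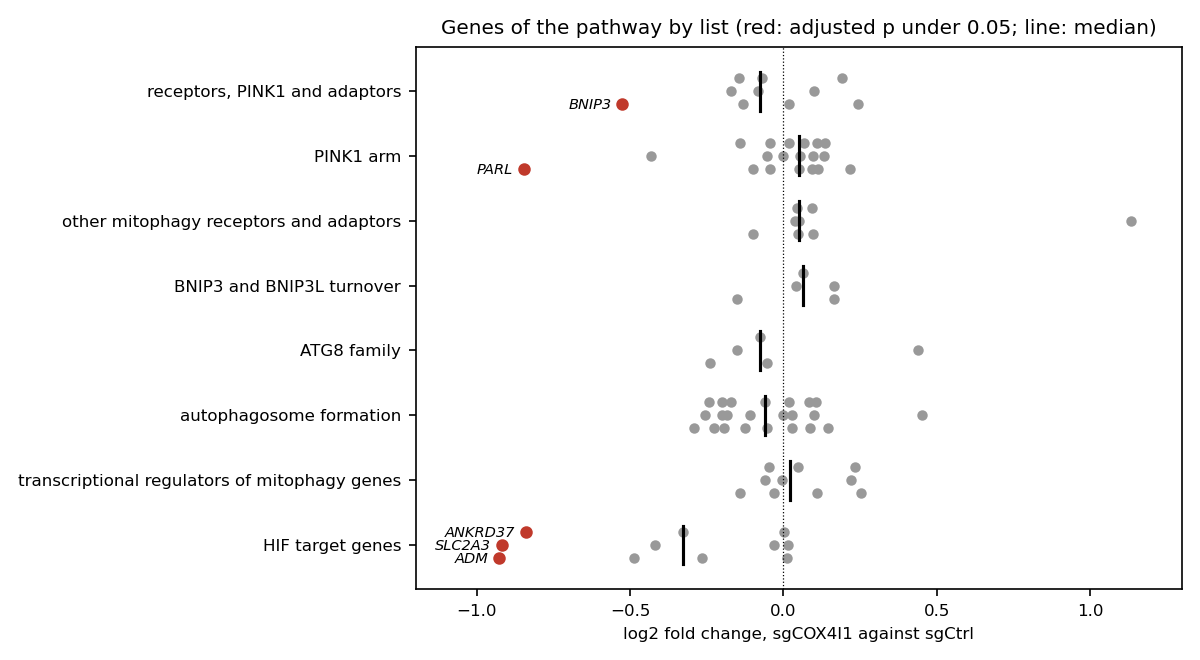
Log2 fold change (horizontal axis) of every tested gene in the 10-gene set and in 7 lists of related genes, with a black line at the median of each list and red for an adjusted p under 0.05 by edgeR. Red points are BNIP3, PARL, SLC2A3, ADM and ANKRD37, all below 0, and the point at 1.13 is NIPSNAP1.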

How the data were processed

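The 6 libraries of Molm13-Cas9 cells, 3 per group, were compared by RNA-seq. The authors deposited whole-number counts per gene symbol without normalization. Per the labels, reads were aligned with STAR 2.6.0a to GRCh38, and the column names point to marked duplicates and HTSeq, whereas the methods name Trimmomatic, Bowtie2 and RSEM. Columns were matched by letter (C for sgCtrl, K for sgCOX4I1) and number. Testing used edgeR 4.0.16 in R 4.3.3 with TMM, filterByExpr and quasi-likelihood tests on all 6 libraries, with adjustment over 11861 genes. Alternatives were DESeq2 1.42.0, limma-voom (limma 3.58.1), other size factors, other filters, the replicate number as a block, and each library left out. Replicates differed by more than sampling noise (chi-square per degree of freedom of 10.6 or more). The fit was tested on simulated data. Gene lengths and positions came from GENCODE 44, and MARCHF5 and NIPSNAP2 were matched through RefSeq synonyms. Named genes are the 10 members, genes called in each list or up to 3 with the smallest adjusted p, COX4I1, and the 5 genes most correlated with BNIP3 and with SQSTM1. Members and lists were chosen with earlier results of these data known. A few others are marked in the text as picked after their values were seen. Some items that these rules name are not reported here.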

Additional observations from a re-analysis of the deposited data

How the results depend on the processing

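Of the 10 genes, 8 kept their direction in all 13 alternatives. FUNDC1 turned to 0.024 without sgCtrl #1, and BCL2L13 to -0.046 without sgCtrl #3 and to -0.0072 without sgCOX4I1 #1, none of them called (with 1 library left out, FUNDC1 ran from -0.26 to 0.024 and BCL2L13 from -0.046 to 0.070). The number of the 10 genes called ran from 0 to 1 with 1 library left out. Over all genes, 247 were called, against 456 by DESeq2, 537 with no filter and 1408 with the replicate block, and from 24 to 561 with 1 library left out. With the 2-fold criterion 24 were called, against 41 with no filter and 57 with the replicate block, and from 9 to 50 with 1 library left out. The causes were not tested. Deviations of same-numbered libraries correlated at 0.38, -0.024 and 0.29, and those of differently numbered libraries between -0.38 and 0.13. The labels do not say that same-numbered libraries were paired, and the main fit did not pair them. Whether they shared a batch was not tested. The lists of related genes held more calls under the replicate block, with 2 in the PINK1 arm, 1 in the ATG8 family, 3 in autophagosome formation, 2 among the regulators and 7 among the HIF targets. The 3 calls among the HIF targets became 5 with no filter and ran from 1 (without sgCtrl #2 or sgCOX4I1 #3) to 6 (without sgCtrl #1) with 1 library left out. Autophagosome formation held 1 call without sgCtrl #1, and the PINK1 arm lost its call without sgCtrl #2, sgCtrl #3, sgCOX4I1 #2 or sgCOX4I1 #3. Under the replicate block BNIP3 was again the 1 gene of the 10 called, and the 2 within-library ratios had a sign-flip exact permutation p of 0.25, the smallest possible. FUNDC1 had 73 to 122 counts per library, the fewest of the 10 genes. Protein and mitophagy flux were not measured in these libraries. By microscopy of Molm13-Cas9 cells, the paper saw no rise in autophagosomes or autolysosomes with sgCOX4I1. It proposes that mitophagy adds no significant part to the stress.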
